A study of Rattus norvegicus with 9 samples.

Results

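Genes of the sarcoplasmic reticulum calcium cycle were followed with age in the posterior cricoarytenoid, the laryngeal muscle that opens the vocal folds, in the rat. The set was fixed by name as 7 genes: the calcium pumps *Atp2a1* and *Atp2a2*, the pump inhibitor *Pln*, the release channel *Ryr1*, the storage proteins *Casq1* and *Casq2*, and the cytosolic buffer *Pvalb*. Every probe set whose only gene symbol in the platform's annotation was one of these was taken, whatever its value. This gave 9 probe sets for 6 genes, of 4736 genes with a symbol of their own. *Ryr1* had no such probe set and was not analysed here. *Atp2a2* was read by 4 probe sets and each of the other 5 genes by 1. After a filter that kept the brighter 60% of all probe sets, 8 of the 9 (5 genes) were tested, and the *Pln* probe set stayed under it.

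In a muscle fibre the sarcoplasmic reticulum is the calcium store. Excitation opens the ryanodine receptor, calcium leaves the store and starts contraction, and calcium pumps of the SERCA family carry it back so that the fibre relaxes. SERCA1, from *Atp2a1*, is the pump of fast fibres. The *Atp2a2* gene encodes the pump of slow fibres and of heart and, through another splice form, a pump found in most cell types. Calsequestrins hold calcium inside the store, parvalbumin binds it in the cytosol of fast fibres, and phospholamban restrains the slow pump.

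The animals were 6, 18 and 30 months old, and each age was measured on 3 arrays. Each array carried RNA combined from 4 animals, so an age stands for 12 rats. The arrays were Affymetrix Rat Genome U34 chips. The labels give no strain, sex or treatment, and the study took 6 months as its baseline. Values are signals of the Affymetrix software on a linear scale. All arrays had been scaled to nearly the same trimmed mean (500.868 to 500.968), and their median signals were 104.2 to 124.8. Errors of signals are standard deviations over the 3 arrays of an age (n = 3 throughout). The signal of a probe set depends on its probes as well as on its transcript, so signals of different probe sets are not set against each other as amounts of RNA. The number of arrays limits the precision.

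**Figure D1:**
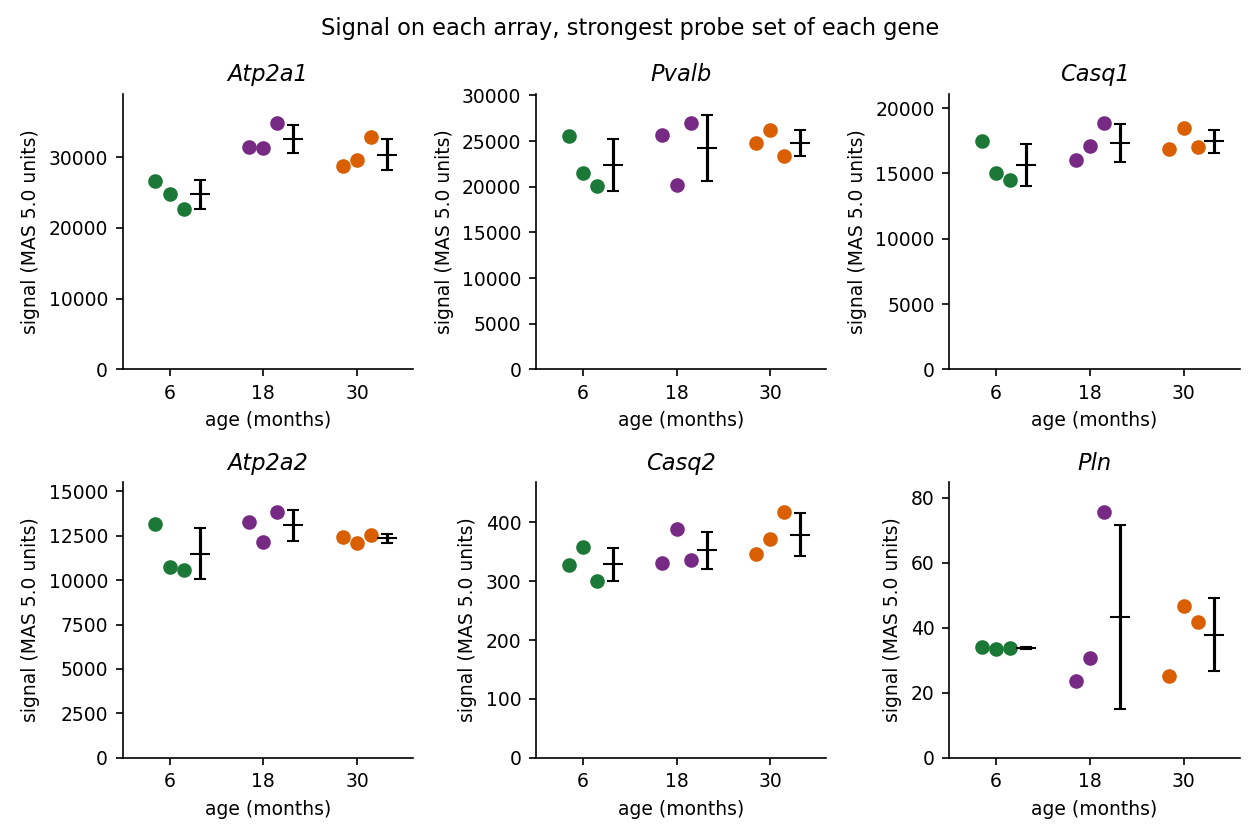
Signal on each array of the strongest probe set of each of the 6 genes, by age in months; coloured points are arrays, black bars are the mean and 1 SD of an age, and each panel has its own linear axis from 0 in signal units. For *Atp2a1* all 3 arrays at 6 months lie below all 6 older arrays, while the ages overlap in the other 5 panels.

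*Atp2a1*, the fast-fibre pump, was the one probe set of the group whose values at 6 months lay apart from both older ages. Its signals were 26663.2, 24828.1 and 22673.2 at 6 months. At 18 months they were 31385.3, 31325.0 and 34806.7. At 30 months they were 28672.9, 29570.8 and 32838.0. The highest array at 6 months was thus below the lowest array of either older age, and the 18- and 30-month arrays overlapped. Mean signals were 24722 ± 1997, 32506 ± 1993 and 30361 ± 2192 at 6, 18 and 30 months. The ratio of means was 1.31 at 18 months and 1.23 at 30 months, both against 6 months. On the log2(signal + 32) scale used for all tests, the difference at 18 months was 0.40 (SE 0.12, 95% interval 0.138 to 0.654), and limma gave an adjusted p of 0.431. The difference at 30 months was 0.30 (95% interval 0.039 to 0.555, adjusted p = 0.34, limma). Between 30 and 18 months it was -0.10 (95% interval -0.357 to 0.159, adjusted p = 0.999, limma). None of the 3 comparisons passed the adjusted threshold of 0.05, although the unadjusted limma p was 0.00667 at 18 months and 0.0282 at 30 months. Leaving out single arrays gave 0.335 to 0.452 at 18 months and 0.236 to 0.353 at 30 months, where the unadjusted p rose above 0.05 without 6-month replicate 2, 6-month replicate 3 or 30-month replicate 3 (up to 0.105, limma). By unadjusted p, *Atp2a1* took place 76 of 5244 probe sets in the first comparison and place 435 in the second.

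At 18 months 0 of the 8 tested probe sets of the group passed an adjusted p of 0.05 in limma, beside 0.0763% of all probe sets tested. At an unadjusted p under 0.05 there was 1, *Atp2a1*, where 8.62% of all probe sets passed. It was also the 1 probe set of the 8 with every 18-month array above every 6-month array, a pattern seen in 5.32% of all, and 0 of the 8 had every older array below (8.35% of all). At 30 months 0 of the 8 passed the adjusted threshold (0.324% of all), and 1 passed unadjusted (12.9% of all). *Atp2a1* alone lay higher without overlap (7.4% of all), and 0 lay lower without overlap (14.8% of all). Between 30 and 18 months 0 of the 8 passed with or without adjustment, against 0.0191% and 3.2% of all probe sets. In that comparison 0 were higher and 0 lower without overlap, against 3.18% and 4.18%. A rule on signals modelled on the study's own, where the means must differ by over 1.7-fold and the arrays must not overlap, named 0 of the 8 in any comparison. It named 1.43%, 2.23% and 0.629% of all probe sets at 18 against 6, 30 against 6 and 30 against 18 months. In an F-test for any difference among the 3 ages, 0 of the 8 passed after adjustment (0.267% of all), and *Atp2a1* had the lowest adjusted p of them (0.474, limma).

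**Figure D2:**
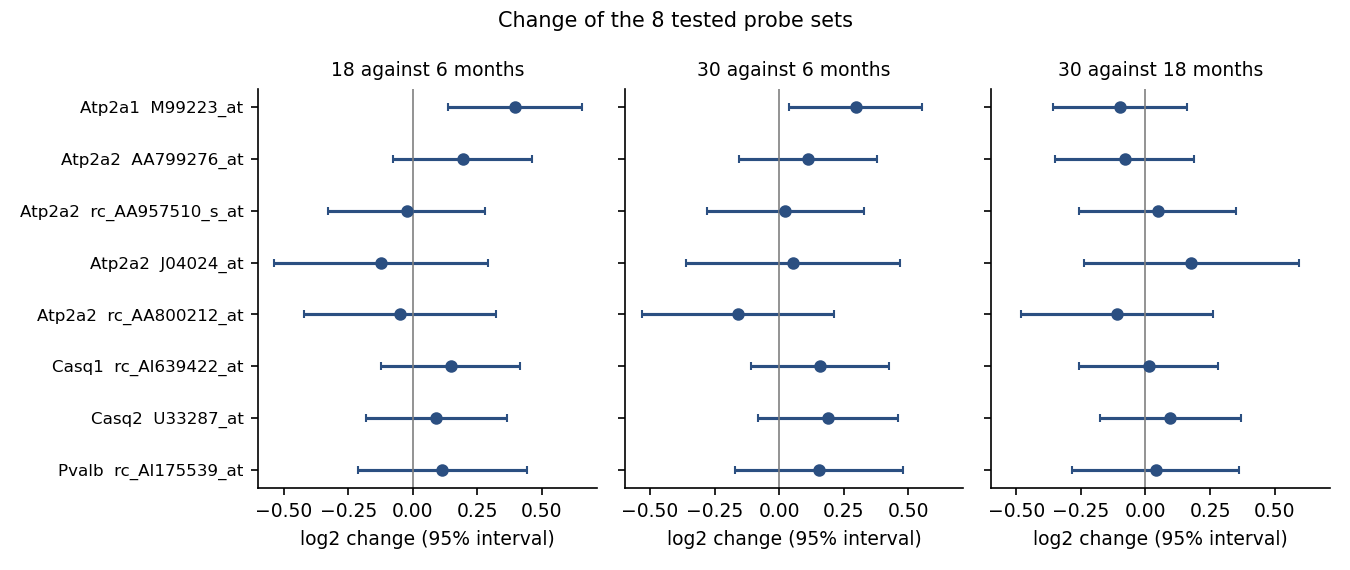
Log2 change of each tested probe set at 18 and 30 months against 6 months, and at 30 against 18 months, on the log2(signal + 32) scale; points are limma estimates and bars are 95% intervals. The intervals of *Atp2a1* lie above 0 in both comparisons with 6 months, and those of the other 7 probe sets include 0.

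The strongest signals of the array were mostly higher at 18 and 30 months than at 6 months, and 4 probe sets of the group were bright: by mean signal *Atp2a1* was at place 15 of 8740, *Pvalb* at 31, *Casq1* at 73 and the brightest *Atp2a2* probe set at 114. Among the 100 strongest probe sets the median log2 change was 0.188 at 18 months and 0.192 at 30 months, with 98 and 94 of the 100 higher than at 6 months. Over all tested probe sets the medians were -0.0424 and -0.0508, with 42.3% and 41.2% higher. Between 30 and 18 months the median of the 100 strongest was 0.0111, with 58 higher and 42 lower. Of the 99 other probe sets among the strongest, 1 (*Cryab*, a small heat shock protein) had a larger change than *Atp2a1* at 18 months, and 22 had a larger change at 30 months. A running median over up to 100 probe sets of similar signal (fewer at the ends of the scale), a description chosen after the values were seen, stood at 0.208 at the signal of *Atp2a1* for 18 months and at 0.212 for 30 months. *Atp2a1* therefore lay 0.188 and 0.0849 above probe sets of its own brightness. When quantile normalization gave all arrays the same distribution of signals, the median change of the 100 strongest became 0.00302 and 0.00234. The change of *Atp2a1* became 0.211 at 18 months (adjusted p = 0.653, limma; 0.304 to 0.653 over all alternatives tried). At 30 months it became 0.106 (adjusted p = 0.729, limma; 0.288 to 0.729 over the alternatives). The part of the array-wide shift in the change of *Atp2a1* was not tested further.

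**Figure D3:**
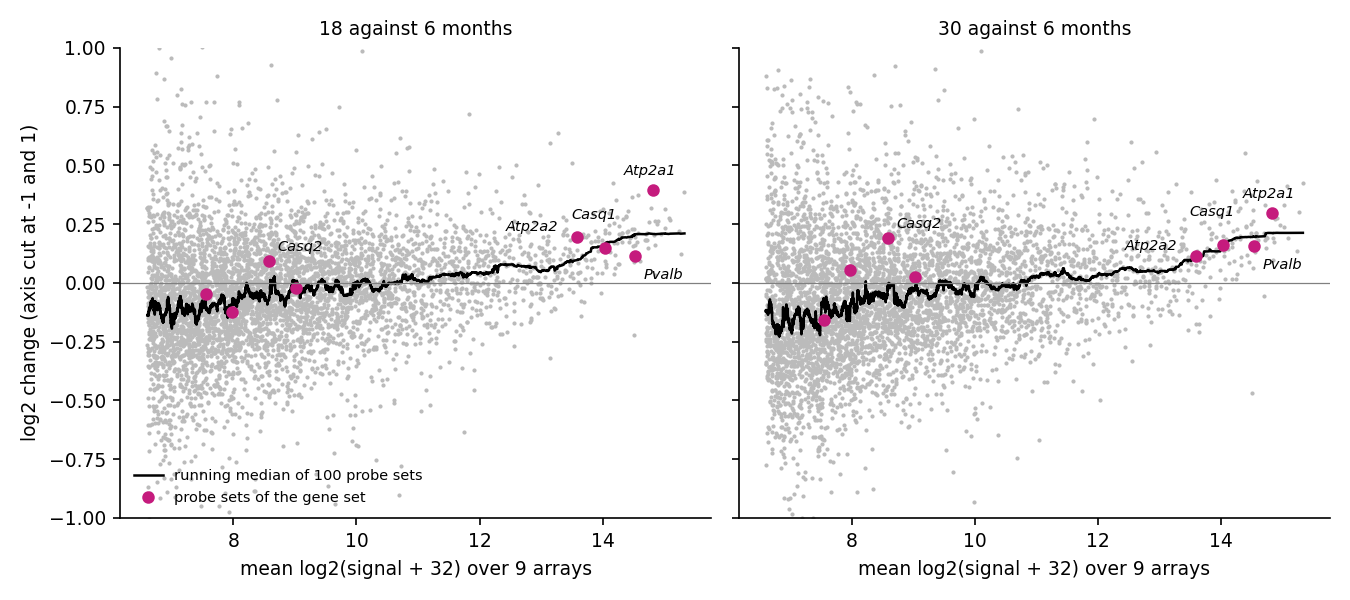
Log2 change at 18 (left) and 30 months (right) against 6 months for every tested probe set, by its mean log2(signal + 32) over 9 arrays; grey points are all probe sets, purple points those of the group, and the line is the running median of up to 100 probe sets. The line climbs from below 0 at dim signals to above 0.2 at the strongest, *Casq1* and *Pvalb* lie near or under it, and *Atp2a1* lies above it; 22 and 37 points fall outside the axis, which ends at -1 and 1.

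*Atp2a2*, the gene of the slow-fibre pump, was read most strongly by the probe set AA799276_at. The 6-month arrays gave 13138.4, 10718.0 and 10587.6. The 18-month arrays gave 13251.3, 12144.8 and 13854.3, and the 30-month arrays 12426.6, 12075.1 and 12546.5. A single high array at 6 months, replicate 1, reached into the range of the older ages, and the other 2 lay below it. Mean signals were 11481 ± 1437, 13083 ± 867 and 12349 ± 245. The log2 difference from 6 months was 0.19 at 18 months (95% interval -0.0763 to 0.462, adjusted p = 0.666, limma) and 0.11 at 30 months (-0.157 to 0.381, adjusted p = 0.706, limma). The running medians at that brightness were 0.0968 and 0.104, so the probe set lay 0.0962 above them at 18 months and 0.008 above them at 30 months. Without replicate 1 of the 6-month arrays the 18-month difference was 0.294.

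The other 3 probe sets of *Atp2a2* gave weaker signals and smaller or opposite differences. The probe set rc_AA957510_s_at, whose suffix marks probes shared by more than 1 transcript, gave 575.7, 464.8 and 436.6 on the 6-month arrays, then 479.8, 540.0 and 428.0 on those of 18 months, and 530.9, 471.9 and 492.4 on those of 30 months. Its ages overlapped fully, and its log2 differences from 6 months were -0.02 at 18 and 0.02 at 30 months. J04024_at gave 299.0, 190.2 and 195.0, then 216.8, 171.7 and 222.8, then 201.1, 222.9 and 282.7. Here again replicate 1 was the high array at 6 months, and the differences were -0.12 and 0.05. The dimmest, rc_AA800212_at, gave 136.6, 194.1 and 168.8, then 139.8, 158.8 and 179.4, then 115.8, 143.0 and 180.4, with differences of -0.05 and -0.16. At 18 months 1 of the 4 probe sets of the gene was therefore higher than at 6 months and 3 were lower, and at 30 months 3 were higher and 1 lower. None had an interval that left out 0.

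The sibling probe sets did not rank the arrays alike. Over the 9 arrays the 6 pairs of *Atp2a2* probe sets had Pearson correlations from -0.585 to 0.496 and Spearman correlations from -0.583 to 0.533. The highest was between AA799276_at and J04024_at (r = 0.496, exact permutation p = 0.166; rho = 0.533, exact p = 0.148). Without the 2 arrays farthest from the median of AA799276_at the Pearson r was 0.325, and computed within ages it was 0.872. The lowest was between rc_AA957510_s_at and rc_AA800212_at (r = -0.585, exact permutation p = 0.0988, and rho = -0.583, exact permutation p = 0.108). There r was -0.665 without the 2 arrays farthest from the median of rc_AA957510_s_at, and -0.594 within ages. After adjustment over the 6 pairs the exact p-values were 0.498 to 0.815 for Pearson and 0.443 to 0.678 for Spearman correlations. No pair passed at 9 arrays. The annotation does not say which splice forms each probe set reads.

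**Figure D4:**
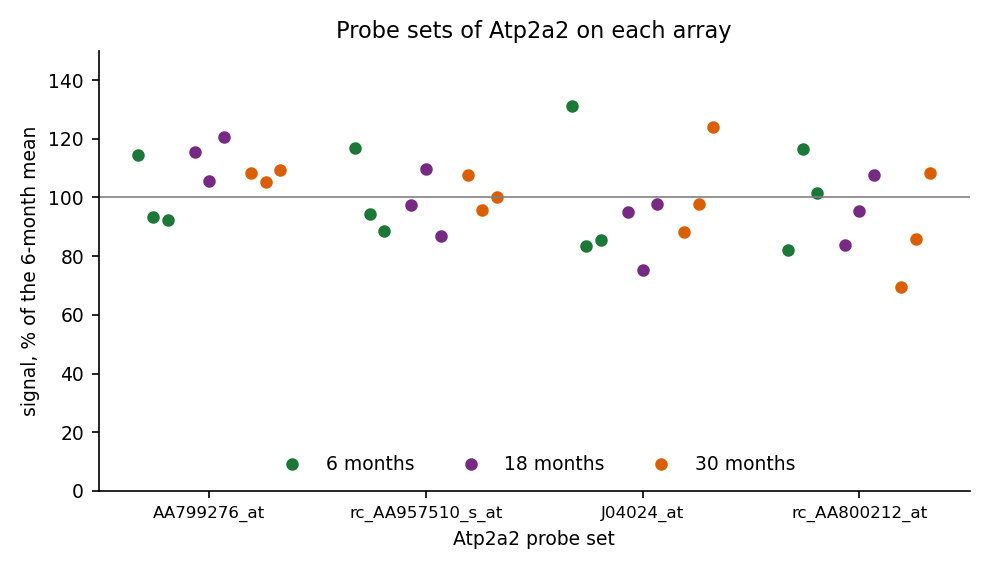
Signal of the 4 *Atp2a2* probe sets on each array, as a percentage of the probe set's own mean over the 6-month arrays; points are arrays in order of replicate number, coloured by age, and the grey line marks 100%. Replicate 1 is the highest 6-month array for 3 of the probe sets and the lowest for rc_AA800212_at, and all 6 older arrays lie above the line for AA799276_at and for no other.

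The promoters of the pumps differ in composition, and are shown because these are the genes of the ratio that follows. Sequences are from RefSeq (build GRCr8), 250 bases before to 50 bases after the annotated start, 5′ to 3′ on the strand of the gene. Capitals mark E-boxes (CANNTG, the motif of myogenic bHLH factors) and GC boxes (GGGCGG on either strand). The *Atp2a1* window is chr1:190475361-190475660, minus strand, and the *Atp2a2* window is chr12:39733269-39733568, plus strand.
Atp2a1: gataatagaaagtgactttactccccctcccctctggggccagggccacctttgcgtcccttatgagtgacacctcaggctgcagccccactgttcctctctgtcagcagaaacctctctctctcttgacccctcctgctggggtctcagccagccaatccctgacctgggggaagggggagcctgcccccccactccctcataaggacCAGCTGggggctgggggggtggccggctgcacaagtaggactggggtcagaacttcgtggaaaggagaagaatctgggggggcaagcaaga
Atp2a2: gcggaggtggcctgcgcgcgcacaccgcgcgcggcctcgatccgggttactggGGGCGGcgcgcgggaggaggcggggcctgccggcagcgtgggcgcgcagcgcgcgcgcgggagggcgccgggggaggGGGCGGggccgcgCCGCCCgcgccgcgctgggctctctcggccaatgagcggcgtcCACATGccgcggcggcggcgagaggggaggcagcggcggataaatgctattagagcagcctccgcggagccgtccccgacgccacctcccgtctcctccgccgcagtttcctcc

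The *Atp2a1* window is 61% G and C and the *Atp2a2* window 79%, against a median of 51.7% over 33469 promoters. Each holds 1 E-box, which begins at -41 in *Atp2a1* and at -64 in *Atp2a2*, and 72.1% of all promoters hold at least 1. The *Atp2a2* window has 3 GC boxes and the *Atp2a1* window 0 (33.1% of all promoters have one). A CCAAT box, searched as CCAAT on both strands, stands at -96 in *Atp2a1* and -79 in *Atp2a2* (37.5% of all). A TATA box (TATAAA, 14.2% of all) and the CArG box (1.64% of all) had 0 matches in the windows of all 7 genes, and the MEF2 motif (3.29% of all) had 1, in *Casq2* at -149. These are letter matches only, and the arrays do not bear on which of them are used.

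The ratio of fast to slow pump was followed within each array as log2 of *Atp2a1* minus log2 of *Atp2a2*, each by its brightest probe set. It is read for its change with age only. It was 1.019, 1.209 and 1.096 on the 6-month arrays, then 1.242, 1.365 and 1.327 at 18 months, then 1.204, 1.29 and 1.386 at 30 months. All 3 arrays of 18 months lay above all 3 of 6 months, while the lowest array of 30 months (1.204) fell just under the highest of 6 months (1.209). As a ratio of signals, the means were 2.16 ± 0.145, 2.49 ± 0.108 and 2.46 ± 0.155. The difference from 6 months was 0.203 at 18 months (1.15-fold, two-sided exact permutation p = 0.1) and 0.185 at 30 months (1.14-fold, exact p = 0.2). With 3 arrays against 3, 0.1 is the smallest p that can occur. Between 30 and 18 months the difference was -0.0179 (exact p = 0.8). An exact permutation F-test over all 1680 assignments of the arrays to the 3 ages gave p = 0.075, so the ratio did not differ among ages beyond the spread between arrays at 0.05.

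The result for the ratio turned on which *Atp2a2* probe set stood for the slow pump. With J04024_at the differences from 6 months were 0.519 and 0.242 (exact p = 0.0143 among the 3 ages). With the mean of all 4 probe sets they were 0.396 and 0.289 (exact p = 0.00357, the smallest the design allows). With rc_AA957510_s_at they were 0.42 and 0.273 (exact p = 0.0679), and with rc_AA800212_at 0.444 and 0.456 (exact p = 0.075). The ratio was higher at both older ages than at 6 months with each of these choices. *Atp2a1* is the same in every one of them, so they are not independent of each other. The other *Atp2a2* probe sets are dimmer than AA799276_at, and the array-wide shift differed with brightness. At 18 and 30 months its running median was 0.208 and 0.212 at the signal of *Atp2a1*, but -0.0899 and -0.101 at that of J04024_at. The part of this in the ratios was not tested. Quantile normalization, run with AA799276_at only, left 0.109 and 0.0454 (exact p = 0.568). Leaving out replicate 2 of 6 months, the array with the highest ratio of its age, gave 0.253 and 0.235 (exact p = 0.0429), and leaving out replicate 1 gave 0.158 and 0.14 (exact p = 0.2).

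**Figure D5:**
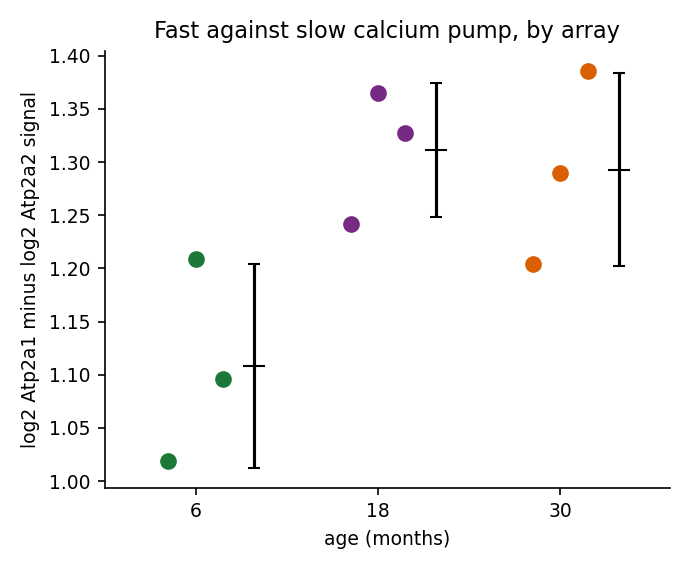
Log2 ratio of the *Atp2a1* signal to the signal of the brightest *Atp2a2* probe set on each array, by age in months; coloured points are arrays and black bars are the mean and 1 SD; the axis does not start at 0. The means are 1.108, 1.311 and 1.293 at 6, 18 and 30 months, and the arrays of 6 and 30 months overlap narrowly.

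*Pln* encodes phospholamban, the inhibitor of the *Atp2a2* pump in slow fibres and heart, and its probe set was dim. It gave 34.1, 33.4 and 33.7 on the 6-month arrays, then 23.6, 30.7 and 75.8 at 18 months, then 25.2, 46.7 and 41.7 at 30 months. The 6-month arrays lay within a span under 1 unit, and the 18-month mean of 43.367 ± 28.31 rested on 1 array, replicate 3. All ages overlapped. The probe set stood at place 6157 of 8740 by signal, under the filter, and was not tested.

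The arrays of the storage proteins overlapped between ages, and neither gene passed the adjusted threshold in limma. *Casq1* encodes the calsequestrin of fast fibres, also made in slow ones. Its probe set gave 17487.6, 15021.9 and 14477.3 on the 6-month arrays. It gave 16027.0, 17089.5 and 18850.0 on those of 18 months, and 16858.6, 18465.4 and 17016.8 on those of 30 months. Replicate 1 of 6 months lay inside the range of the older arrays, while the other 2 lay below all 6 of them. The log2 difference from 6 months was 0.15 at 18 months (95% interval -0.122 to 0.415, adjusted p = 0.742, limma) and 0.16 at 30 months (-0.109 to 0.427, adjusted p = 0.581, limma). These were close to the running medians at its brightness, 0.158 and 0.148, and under quantile normalization they were 0.0113 and 0.00288.

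*Casq2*, the calsequestrin of heart and slow fibres, gave 327.5, 357.2 and 300.3 on the 6-month arrays, then 331.3, 388.8 and 336.3 at 18 months, then 346.8, 371.6 and 418.2 at 30 months. Each age overlapped the next, with means of 328.33 ± 28.46, 352.13 ± 31.85 and 378.87 ± 36.25. The log2 differences from 6 months were 0.09 (95% interval -0.18 to 0.364, adjusted p = 0.845, limma) and 0.19 (-0.0832 to 0.461, adjusted p = 0.518, limma). Probe sets of the same brightness had running medians of -0.0599 and -0.0331, so *Casq2* stood 0.152 and 0.222 above them at 18 and 30 months. At 30 months that distance was the largest of the 8 tested probe sets, and it carries no test. Under quantile normalization the differences of *Casq2* were 0.134 and 0.23, and at 30 months that was more than the 0.106 of *Atp2a1*; the difference between the genes was not tested.

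*Pvalb* encodes parvalbumin, which takes up cytosolic calcium in fast fibres and speeds relaxation. At 6 months its arrays gave 25507.1, 21479.7 and 20036.1. The 18-month arrays gave 25639.4, 20181.8 and 26972.0, and the 30-month arrays 24794.1, 26186.9 and 23327.2. The ages overlapped, with the widest spread at 18 months (coefficient of variation 14.8%, against 12.7% at 6 and 5.77% at 30 months). The log2 differences from 6 months were 0.12 (95% interval -0.21 to 0.441, adjusted p = 0.834, limma) and 0.15 (-0.171 to 0.48, adjusted p = 0.667, limma). Both lay under the running medians of 0.207 and 0.195, and quantile normalization turned them to -0.0777 and -0.04.

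Across the 8 tested probe sets the median log2 change was 0.104 at 18 months, 0.133 at 30 months and 0.0258 between 30 and 18 months. At 18 months 5 were higher than at 6 months, at 30 months 7 were higher than at 6, and 5 of the 8 were higher at 30 than at 18 months. Over all tested probe sets 42.3%, 41.2% and 45.9% were higher in these comparisons, and of the 100 strongest 98, 94 and 58. Of the 8, 4 read the single gene *Atp2a2* and are not independent. Both comparisons with 6 months share the 6-month arrays. The 4 bright probe sets together (*Atp2a1*, *Pvalb*, *Casq1* and AA799276_at) made up 1.17%, 1.06% and 1% of the summed signal of the 6-month arrays. The shares were 1.21%, 1.14% and 1.28% on the arrays of 18 months and 1.17%, 1.18% and 1.19% on those of 30 months. In each of these genes replicate 1 was the highest array at 6 months.

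Genes with the most similar profiles over the 9 arrays were named by Pearson correlation of log2 values, as a description with no test; they share libraries and the array-wide shift. For *Atp2a1* these were *Myh2* (0.961), a fast myosin heavy chain, *Slc25a3* (0.941), the mitochondrial phosphate carrier, and *Myh7* (0.934), the slow myosin heavy chain. The *Myh7* probe set carries the suffix of probes shared by a gene family. For *Atp2a2* (AA799276_at) they were *Kcnj15* (0.926), *Acvr2b* (0.921) and *Tpm1* (0.918). For *Casq1* they were *Eef1a2* (0.933), *Tnnc2* (0.913) and *Pygm* (0.912), which encode an elongation factor of muscle and nerve, fast troponin C and muscle glycogen phosphorylase. For *Pvalb* they were *Jph2* (0.947), *Myh6* (0.931) and *Cox4i1* (0.922). For *Casq2* they were *Gamt* (0.88), *Klf4* (0.88) and *Sgk1* (0.878). Probe sets correlated above 0.8 numbered 54 for *Atp2a1* (1.03% of those tested), 54 for *Casq1*, 39 for *Pvalb*, 38 for *Atp2a2* and 15 for *Casq2* (0.286%).

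Outside the group, a list of 59 further genes of calcium handling in muscle had 47 genes on the array and 39 past the filter. None passed the adjusted threshold in any comparison (limma). At an unadjusted p under 0.05, 0 were higher and 1 lower at 18 months, 0 higher and 5 lower at 30 months, and 0 either way between 30 and 18 months. Over all probe sets tested 8.62%, 12.9% and 3.2% passed unadjusted in these comparisons. The median log2 change was -0.0969 at 18 and -0.0194 at 30 months, beside -0.0422 and -0.0585 over 3163 genes. Of the 39, 14 were higher at 18 months and 19 at 30 months, where 42.2% and 39.3% of all genes were. *Calb2*, which encodes the calcium buffer calretinin, went from a mean signal of 213 ± 42.1 at 6 months to 144.2 ± 19.9 and 126.3 ± 6.95, and neither older age overlapped 6 months. Its log2 difference at 30 months was -0.62 (adjusted p = 0.183, limma). *Cacnb2*, a calcium channel β subunit, had 143.7 ± 31.2 at 6 months and 79.83 ± 28.4 at 30 months, without overlap (-0.67, adjusted p = 0.313, limma).

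The strongest genes of that list differed in both directions. *Calr*, the reticulum calcium binder calreticulin, had mean signals of 2818 ± 438, 3195 ± 90.7 and 3434 ± 158, with a log2 difference of 0.29 at 30 months (adjusted p = 0.386, limma). Its other 2 probe sets gave 0.127 and -0.0176. *Asph*, whose locus encodes the junctional protein junctin, had 2695 ± 328, 2908 ± 24.8 and 2928 ± 140. *Jph2*, which ties the reticulum to the surface membrane, had 2512 ± 296, 2803 ± 386 and 2868 ± 65.6. *Cacna2d1*, a subunit of the voltage sensor channel, had 3144 ± 617, 2920 ± 374 and 2524 ± 200 (-0.30 at 30 months, adjusted p = 0.455, limma). *Camk2b*, a calmodulin-dependent kinase, had 2286 ± 536, 2383 ± 364 and 3005 ± 479 (0.40 at 30 months, adjusted p = 0.415, limma). *S100a1*, a calcium sensor of muscle, had 2867 ± 139, 2476 ± 609 and 2196 ± 15.6 by its strongest probe set (-0.38 at 30 months, adjusted p = 0.364, limma). The other 3 *S100a1* probe sets differed by -0.0174, -0.0792 and -0.0209 there.

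Some dim probe sets of the list, under the filter and untested, also separated ages. They were picked for that, and the share of all dim probe sets that do so was not counted. *Ocm*, the gene of oncomodulin, had 43.07 ± 20.5 at 6 and 8.7 ± 8.87 at 30 months, and *Cacnb3* had 93.83 ± 27.6 and 48.17 ± 13. For *Camk2g* the probe set U73503_at went from 15.6 ± 2.16 to 7.9 ± 0.608. For *Camk2d* L13406_s_at went from 50.6 ± 10.3 to 78.43 ± 11.1, and rc_AA925495_at was 20.73 ± 9.4 at 6 and 8.233 ± 0.586 at 18 months. For *Slc8a1*, the sodium-calcium exchanger, U04937_s_at went from 44.23 ± 6.75 at 6 to 21.03 ± 9.28 at 30 months and X68191_at from 28.83 ± 18.6 at 6 to 56.9 ± 18.4 at 18 months. For the pump *Atp2b2*, J03754Complete_seq_at went from 5.533 ± 1.85 at 6 to 33.3 ± 7.55 at 30 months, and its tested probe set L05557cds_g_at from 94.1 ± 17.7 to 70.9 ± 6.05. For *Atp2b3*, J05087_at was 15.67 ± 3.42 at 18 and 47.8 ± 33 at 30 months. *Ocm* and *Cacnb3* had 1 probe set each. The strongest *Atp2b2* probe set, L05557cds_g_at, was lower without overlap at 30 against 6 months (ratio 0.753), opposite to J03754Complete_seq_at. The strongest probe sets of *Slc8a1*, *Camk2d*, *Camk2g* and *Atp2b3* overlapped in the same comparisons. At 30 against 6 months their ratios of means were 1.01 for *Slc8a1*, 0.953 for *Camk2d* and 1.03 for *Camk2g*. For *Atp2b3* it was 1.23 at 30 against 18 months. Another tested *Slc8a1* probe set, U04934_s_at, was lower without overlap at 30 against 6 months (ratio 0.773).

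Markers of fibre types and of other cells moved beside the group. Of 10 fast-fibre genes 8 were on the array and tested, and all 8 were higher at both older ages than at 6 months (medians 0.192 and 0.24). Of all genes 42.2% and 39.3% were higher, and of the 100 strongest probe sets 98 and 94, with medians of 0.188 and 0.192. In limma 0 of the 8 passed the adjusted threshold, and 1 and 3 had an unadjusted p under 0.05 (8.62% and 12.9% of all probe sets). The summed signal of the fast-fibre genes was 106060 to 122900 at 6 months, 119570 to 144000 at 18 months and 124730 to 133960 at 30 months. At 30 months this sum lay above 6 months without overlap. Of 8 slow-fibre genes 5 were on the array, with medians of 0.314 and 0.0935 and sums of 14547 to 19150, 20581 to 26054 and 19816 to 22002. Of the 5, 4 were higher and 1 lower at 18 months, and 5 were higher at 30 months. In limma 0 passed the adjusted threshold, and 2 had an unadjusted p under 0.05 at each older age, *Myl2* and *Myh7*. The arrays of *Myl3*, *Tnni1* and *Tpm3* overlapped between 6 months and both older ages. The slow-fibre sum at 6 months thus lay below both older ages without overlap, as the *Atp2a1* signal did. Muscle markers of both fibre types were strong on all 9 arrays, as in skeletal muscle. All 5 fibroblast genes were lower at both older ages (medians -1.07 and -1.25, with 1 and 3 past the adjusted threshold in limma), and their sum was 15523 to 19534, 11294 to 12229 and 12604 to 12801. The genes past the threshold were collagens. *Dcn*, the brightest of the list, differed by -0.32 at 18 months without overlap. At 30 months it differed by -0.0949, with overlap (adjusted p = 0.731, limma). Because the tissue was measured in bulk, fewer cells of a type and less RNA per cell cannot be told apart. The part of these shifts in the values of the calcium genes was not tested.

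Other marker lists held fewer genes or dimmer signals. Of 5 cardiac genes, which bear on *Atp2a2*, *Casq2* and *Pln*, 2 passed the filter, and *Nppa*, *Nppb* and *Tnnt2* were under it. The cardiac sum was 2262.1 to 3039.8, 1965.3 to 4466.3 and 3092.6 to 3705.3, mostly from a *Myh6* probe set with the suffix of a gene family. Smooth muscle (4 of 5 genes on the array) gave 2158.5 to 2746.4, 2276 to 2712.9 and 2180.1 to 2634.7. Adipocyte genes (4 of 5) gave 3111.9 to 3593.2, 3019.6 to 3245.2 and 2889.1 to 3768.3. Schwann cell genes (3 of 5) gave 2423.6 to 2912.9, 2063.3 to 2375.1 and 2138.2 to 2385, lower at both older ages without overlap. Most of this sum came from *Pmp22*. *Mbp* was lower at both older ages, with overlap at 18 months. *S100b* overlapped between all ages, and its mean was 138.3 at 6 and 165.57 at 30 months. Thyroid genes (3 of 4, *Slc5a5* under the filter) gave 279.7 to 347.3, 284.8 to 899.4 and 314.5 to 852.2. Macrophage genes (2 of 4) gave 296.6 to 348, 203.6 to 348.6 and 190.3 to 244. Epithelial genes (3 of 4) gave 144.4 to 161.8, 85.7 to 147.6 and 89.9 to 140.2, and cartilage genes (3 of 4, all under the filter) 95.3 to 131.3, 66.2 to 101.7 and 51.2 to 74.3. At 30 months the macrophage, epithelial and cartilage sums lay below those of 6 months without overlap, and the cardiac sum lay above. Single genes did not all follow their sums. *Tnni3*, the other tested cardiac gene, went from 125.07 to 85.2 without overlap, and *Tnnt2* was lower with overlap. *Nppa* and *Nppb* were higher with overlap. Of the macrophage genes *Cd14* was lower without overlap (292.3 to 184), while *Csf1r* was higher with overlap (36.033 to 41.9). *Csf1r*, *Krt5* and *Krt19* were also under the filter. Of all single probe sets tested, 14.8% lay lower and 7.4% higher without overlap in that comparison. No marker on the array had a signal of 0, but presence calls were not used, so this does not show that a dim marker was present.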

How the data were processed

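The data are 9 one-channel Affymetrix Rat Genome U34 arrays, 3 per age. The deposited values are signal intensity on a linear scale, which the authors computed with MAS 5.0, per the submitters' processing notes and the series' design text. The labels name a pair of dyes, but the protocol describes biotin and streptavidin, so arrays were taken as 1 channel. The genome build behind the probe annotation is not given in the sources used here, and presence calls were not used.

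Of 8799 probe sets 59 controls were left out. The scaling of the authors was not changed. Tests ran on log2(signal + 32), for the upper 60% of probe sets by mean log2 (cutoff 6.60, 5244 of 8740). Of these 8740, 7006 carried 1 symbol in the annotation, 308 several and 1426 none. All 9 probe sets of the group matched RefSeq names. The model had a mean for each age and used every array (limma 3.58.1, lmFit and eBayes, under R 4.3.3). Its two-sided p-values were Benjamini-Hochberg adjusted across the 5244 probe sets. P-values measure the spread between pools, not animals. The limma fit was tested on simulated data, and the other computations were not.

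The gene set, lists and tests were chosen with earlier results of these data known. All members were named; from the calcium list, genes past the threshold, then genes without overlap and with a ratio over 1.5, then the 6 strongest; and for likeness the 3 genes with the highest correlation. *Cryab* and a few sibling probe sets were named after their values were seen. Alternatives changed the pseudocount, filter, normalization, arrays fitted, replicate block, probe set and call rule.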

Additional observations from a re-analysis of the deposited data

How the results depend on the processing

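The count of calcium genes past an adjusted p of 0.05 in limma was 0 under all 16 alternatives in each comparison. The rule on signals, with means over 1.7-fold apart and no overlap, also gave 0 in each. At an unadjusted p under 0.05, quantile normalization took the count from 1 to 0 at 18 and to 0 at 30 months. Leaving out single arrays gave 1 to 2 at 18 months (2 without replicate 1 of 6 months, where *Atp2a2* joined *Atp2a1*), 0 to 1 at 30 months (0 without 6-month replicate 2, 6-month replicate 3 or 30-month replicate 3) and 0 to 0 between 30 and 18. *Atp2a1* stayed higher at 18 (0.211 to 0.452) and 30 months (0.106 to 0.353) in 16 alternatives, with an unadjusted p under 0.05 in 15 and 12. For the pump ratio, single arrays left out gave 0.158 to 0.253 at 18 months, 0.139 to 0.235 at 30 months and -0.0642 to 0.0266 between them (exact permutation p 0.0429 to 0.2). With J04024_at for *Atp2a2* the 3 differences were 0.519, 0.242 and -0.277, and with the mean of its probe sets 0.396, 0.289 and -0.107, both past 0.05; with rc_AA800212_at the last was 0.0126, reversed. *Atp2a1*, *Casq2* and AA799276_at kept their direction in every comparison under the 16 alternatives. Quantile normalization reversed rc_AA800212_at (0.035) and rc_AA957510_s_at (0.0125) at 18 months, *Pvalb* at 18 (-0.0777) and 30 months (-0.04), and *Casq1* between 30 and 18 months (-0.00846). Leaving out single arrays turned the sign of J04024_at at 18 (-0.224 to 0.063) and 30 months (-0.0684 to 0.241). It did so for rc_AA800212_at at 18 months (-0.16 to 0.0512) and between 30 and 18 (-0.245 to 0.0161). It also did for rc_AA957510_s_at at 18 (-0.103 to 0.0872), at 30 (-0.0525 to 0.135) and between 30 and 18 months (-0.0302 to 0.127), and for *Casq1* (-0.042 to 0.0748) and *Pvalb* (-0.0878 to 0.121) between 30 and 18 months. The causes were not tested. rc_AA800212_at is not tested with the upper 40% filter. Deviations of same-numbered arrays correlated at -0.0209 to 0.261, above 0.1 in 4 of 9 pairs, and those of different numbers at -0.205 to 0.149, above 0.1 in 2 of 18. Not every same-numbered pair was over 0.1 and the labels state no pairing, so the arrays were not treated as paired. With the replicate number as a block the counts past the adjusted threshold stayed 0, *Atp2a1* differed by 0.396 at 18 months (adjusted p = 0.435, limma), and the pump ratio had an exact permutation p of 0.0833. Saturation of strong probe sets cannot be read from signals alone, and dim ones such as *Pln* are limited by background.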
